A study of Mus musculus with 2 samples.

Results

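The genes of the mitochondrial respiratory chain and ATP synthase were described in hippocampal cells of wild-type and Crlf3-mutant mice. They were chosen by symbol: names that start with mt-Nd, mt-Co, mt-Cytb, mt-Atp, Nduf, Uqcr, Cox4 to Cox8 or Atp5, and Sdha, Sdhb, Sdhc and Sdhd. The rule found 107 of the 32285 genes in the matrices, 13 encoded by the mitochondrial genome and 94 by the nuclear genome. The nuclear genes were 37 of complex I, 8 complex I assembly factors, 4 of complex II, 8 of complex III, 20 of complex IV and 17 of complex V, the ATP synthase. Single cells were profiled by their transcripts' 5′ ends, with molecular identifiers (UMIs), in 2 libraries. One library was from wild-type mice and the other from mice with the Crlf3 L389P mutation, all 4 weeks old and untreated, and each pooled 4 hippocampi of 2 mice. The tissue was dissociated with enzymes, cleared of debris and myelin, and sorted for live cells. Each library held cells with Xist and cells with Y-linked transcripts, but cells were not assigned to single animals. Each genotype is therefore 1 sample, no test was possible, and every difference between the libraries is a description of these libraries. Where 2 values stand together without a label, the first is the wild-type and the second the mutant library.

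The respiratory chain passes electrons from NADH (complex I) and succinate (complex II) through complex III and cytochrome c to oxygen (complex IV), and the proton gradient so built drives the ATP synthase. Complex II is made of nuclear-encoded subunits alone, while the other complexes join subunits made inside the mitochondrion from its own genome with subunits imported from the cytosol. The levels of both sets of RNA can therefore be compared within one cell type. In brain, the choroid plexus epithelium, which secretes cerebrospinal fluid, is known for its many mitochondria, and several complex IV subunits exist as isoforms that differ between tissues.

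Barcodes numbered 7713 for wild type and 5720 for mutant, with 51328178 and 43103469 UMIs. After filters and removal of doublets, 7201 and 5318 cells remained, with a median of 6161 and 7334 UMIs, and the libraries shared 55 cell barcodes among them. No limit was set on the mitochondrial share of a cell, since it is the measured quantity. Cells with over 10% mitochondrial UMIs numbered 85 and 44. Cells were assigned to classes by marker genes, and 6 classes held at least 100 cells in each library: microglia-like (4448 wild-type and 3276 mutant cells), astrocyte-like (824 and 506), endothelial-like (835 and 818), mural-like (128 and 165), choroid plexus-like (360 and 116) and neuroblast-like (111 and 145). The median cell of each of these classes had a UMI of at least 70% of the class's own markers. The choroid plexus-like class was the least sharply bounded, with 92 wild-type and 36 mutant cells just inside the limit on markers of a next class and 61 and 28 just outside it. Mature neurons were nearly absent from the sorted cells, with 3 wild-type cells and 1 mutant cell.

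Of the 107 genes, 106 had a UMI in some cell, and Cox8c, a testis isoform, had none. Levels are in CPM: a gene's UMIs over all UMIs of the cells of a class, scaled to a total of 1e+06. UMIs count 5′ ends, so a count does not grow with transcript length, although the capture of each 5′ end is not known. A gene counted as measured at 50 CPM and 30 UMIs or more in the library where it was higher, and 101 of the 107 genes met this in at least 1 of the 6 classes. Ndufaf1, Ndufaf5 and Ndufaf6 (assembly factors) and Cox6a2, Cox7b2 and Cox8c (complex IV isoforms) did not. Of these, Cox6a2, the heart and muscle form of subunit VIa, had 71 wild-type and 75 mutant UMIs in microglia-like cells and 1 UMI in all other main classes together.

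The balance of mitochondrial and nuclear transcripts differed widely between cell classes, and the highest and lowest class of the ratio were the same in both libraries. Choroid plexus-like cells devoted the largest share of their UMIs to the 94 nuclear genes, 7.18% and 7.53%. Microglia-like cells devoted the smallest, 1.08% and 1.07%. Astrocyte-like cells (3.25% and 3.29%) and mural-like cells (3.06% and 3.06%) were next below the choroid plexus-like cells. Neuroblast-like cells (2.20% and 2.31%) and endothelial-like cells (2.01% and 1.91%) lay between these and microglia-like cells. The 13 mitochondrial genes followed another order. Astrocyte-like cells were highest, at 3.82% and 3.62%, and microglia-like cells lowest, at 1.71% and 1.67%. Choroid plexus-like cells, at 2.93% and 1.96%, were next in the wild-type order, level within counting error with mural-like cells (2.91%). In the mutant order choroid plexus-like cells stood below mural-like (2.65%), neuroblast-like (2.27%) and endothelial-like cells (2.15%), with microglia-like cells alone below them.

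The ratio of mitochondrial to nuclear UMIs was therefore highest in microglia-like cells and lowest in choroid plexus-like cells. It was 1.58 (95% interval 1.57 to 1.59) in wild-type and 1.56 (1.56 to 1.57) in mutant microglia-like cells. In choroid plexus-like cells it was 0.408 (0.405 to 0.411) and 0.261 (0.258 to 0.264). These intervals, like all below, cover counting error only. The wild-type order between these ends was astrocyte-like 1.17, neuroblast-like 1.13, endothelial-like 1.12 and mural-like 0.949, of which the neuroblast-like and endothelial-like values had overlapping intervals. The mutant order was endothelial-like 1.12, astrocyte-like 1.10, neuroblast-like 0.983 and mural-like 0.865. Both ends were the same under each alternative filter, gate, clustering and scaling tried in which all 6 classes could be compared. They did not hold at every depth. Under 5000 UMIs, neuroblast-like (2.04 and 4.00) and astrocyte-like cells (1.84 and 1.94) were above microglia-like cells (1.29 and 1.55), while choroid plexus-like cells remained lowest (0.652 and 0.641). Ttr, the transthyretin of choroid plexus, took 24.96% and 23.5% of choroid plexus-like UMIs. Without Ttr in the total, the nuclear genes came to 9.57% and 9.84% of UMIs and the mitochondrial genes to 3.90% and 2.57%, and the ratio does not depend on it.

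**Figure D1:**
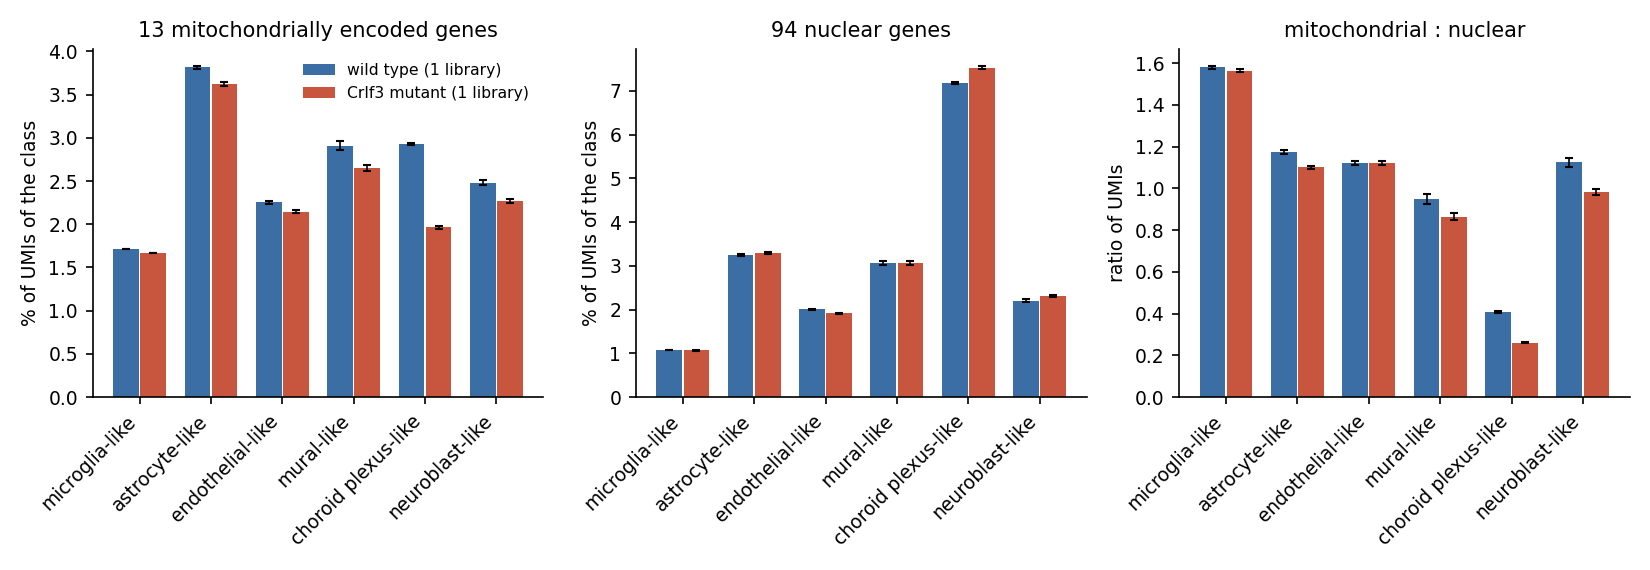
Share of UMIs from the 13 mitochondrial genes (left) and the 94 nuclear genes (middle), and their ratio (right), in the 6 cell classes of the wild-type (blue) and Crlf3-mutant (red) library; bars are sums over all cells of 1 library and error bars are 95% counting intervals. Nuclear genes take over 7% of choroid plexus-like UMIs in both libraries, and the ratio runs from 1.58 in wild-type microglia-like cells to 0.261 in mutant choroid plexus-like cells.

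Smaller classes lay inside this range. The ratio was 0.941 and 0.796 in neural progenitor-like cells (27 wild-type and 36 mutant cells), 1.25 and 0.938 in ependymal-like cells (51 and 20) and 1.11 and 1.10 in border macrophage-like cells (40 and 18). Ependymal-like cells, whose kind lines the ventricles where the choroid plexus is attached, had 2.55% and 2.87% nuclear respiratory chain UMIs, below the choroid plexus-like cells.

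Among the mitochondrial genes, mt-Co1, mt-Co3, mt-Cytb, mt-Atp8 and mt-Co2 gave most UMIs in every main class, and mt-Nd6 and mt-Nd3 the fewest. In wild-type astrocyte-like cells mt-Co1, the catalytic core of complex IV, was at 6112 CPM, and mt-Nd6, encoded on the opposite strand from all the other 12, at 194 CPM. A pair of bicistronic messages carries 2 genes each, with overlapping reading frames: mt-Atp8 (chrM:7766-7969) before mt-Atp6 (chrM:7927-8607), and mt-Nd4l (chrM:9877-10173) before mt-Nd4 (chrM:10167-11544). In each pair the upstream gene, which is nearer the 5′ end of the shared message, had more UMIs. In wild-type microglia-like cells mt-Atp8 was at 1925 CPM and mt-Atp6 at 708 CPM, and mt-Nd4l at 1459.8 CPM and mt-Nd4 at 594 CPM. How reads in the overlaps were assigned is not given in the sources used here.

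The makeup of the mitochondrial UMIs also differed between classes, with close values in both libraries. mt-Cytb, the mitochondrial subunit of complex III, made up 17.8% and 18.8% of mitochondrial UMIs in mural-like cells and 11.2% and 11.6% in choroid plexus-like cells. mt-Nd5, a proton-pumping subunit of complex I, went the other way, with 1.67% and 1.68% in mural-like and 4.66% and 5.40% in choroid plexus-like cells. mt-Co1 made up 20.1% and 19.0% in neuroblast-like cells and 13.6% and 13.2% in mural-like cells.

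Most nuclear genes had the same highest and lowest class as their sum. Of the 92 nuclear genes with enough UMIs to be ranked, 75 were highest in choroid plexus-like cells in both libraries and 78 lowest in microglia-like cells in both. Of the 13 mitochondrial genes, 9 were highest in astrocyte-like cells in both libraries and 8 lowest in microglia-like cells in both. The matching shares over all measured genes are not given here, so these counts do not set the respiratory chain genes apart from others. Exceptions among nuclear genes were of several roles. Ndufc2, an accessory subunit of complex I, was highest in astrocyte-like cells, at 950.0 and 1009 CPM, against 614 and 626 CPM in choroid plexus-like cells. Ndufa7, another accessory subunit, reached 702 and 720 CPM in endothelial-like cells, close to the 690 and 728 CPM of choroid plexus-like cells. Complex IV genes made up 31.1% and 30.8% of nuclear respiratory chain UMIs in mural-like cells and 25.4% and 25.3% in microglia-like cells. Complex V genes made up 32.7% and 33.1% in choroid plexus-like and 27.0% and 27.5% in mural-like cells.

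Complex IV transcripts of mural-like cells differed in kind from those of the other classes. Mural cells are pericytes and the smooth muscle of vessel walls. Cox4i2 (chr2:152754173-152765037), the alternative form of subunit IV known from lung, was at 1049.8 and 1090.0 CPM in mural-like cells. The widespread form Cox4i1 was at 892 and 925 CPM there. Cox4i2 thus made up 54.1% (exact 95% interval 50.7 to 57.4) and 54.1% (51.4 to 56.8) of the pair. In endothelial-like cells it made up 3.64% and 2.68%, in astrocyte-like cells 1.34% and 1.62%, and in microglia-like cells 0.0599% and 0.0697%. Ndufa4l2 (chr10:127514967-127517154), a paralogue of the complex IV subunit Ndufa4, was at 1655 and 1646 CPM in mural-like cells, where Ndufa4 was at 204 and 161 CPM. In the other main classes Ndufa4l2 was at most 39.3 CPM, in wild-type endothelial-like cells. A UMI of Cox4i2 was found in 118 of 128 and 150 of 165 mural-like cells, at a median of 3031.5 and 3616 UMIs per cell, and in 8 of 4448 and 4 of 3276 microglia-like cells, at 6353 and 7740.5 UMIs. The same counts for Ndufa4l2 were 123 of 128 and 158 of 165 mural-like cells, and 9 of 4448 and 4 of 3276 microglia-like cells. Summed markers of endothelial cells were at 98.6 and 79.0 CPM in the mural-like class, against 48498 and 46867 CPM of mural markers. In the endothelial-like class mural markers summed to 1016 and 734 CPM, and their part in its Cox4i2 and Ndufa4l2 levels was not tested.

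Both paralogues differed between mural-like cells of different kinds. In cells with more UMIs of Kcnj8, Abcc9 and Atp13a5, markers of pericytes (106 wild-type and 133 mutant cells), Cox4i2 made up 61.8% and 64.7% of its pair. There Ndufa4l2 was at 2247 and 2222 CPM and Ndufa4 at 29.4 and 17.9 CPM. In cells with more UMIs of Acta2, Tagln and Myh11, genes of the contractile apparatus (22 and 31 cells), Cox4i2 made up 27.7% and 19.0%. Ndufa4l2 was at 446 and 554 CPM in these and Ndufa4 at 560 and 434 CPM. The mitochondrial to nuclear ratio was 0.826 and 0.727 in the first and 1.17 and 1.10 in the second kind of cell. These cells were not matched for depth, with which the mural-like ratio also varied, as given below. The part of depth in the difference was not tested. This split was made after the values of the class were seen.

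Choroid plexus-like cells expressed a different set of isoforms. Cox8b (chr7:140898945-140900446), the heart and muscle form of subunit VIII, was at 432 and 453 CPM, and Cox8a, the widespread form, at 3953 and 4218 CPM. Cox8b had no UMI in mural-like cells, which allows at most 6.57 and 4.39 CPM (3 UMIs), nor in neuroblast-like cells (at most 3.44 and 2.12 CPM). It was at 4.37 and 3.23 CPM in astrocyte-like cells. In mutant choroid plexus-like cells under 20000 UMIs Cox8b was at 262 CPM, so deep cells carry much of its level in that library. Cox6b2, an isoform of subunit VIb first known from testis, was at 197 and 204 CPM, and Cox7a1, the heart and muscle form of subunit VIIa, at 116 and 125 CPM. Cox6b2 and Cox7a1 were also found in ependymal-like cells, at 125 and 109 CPM for Cox6b2 and at 52.4 and 82.7 CPM for Cox7a1, where Cox8b was at 2.02 and 15.5 CPM.

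Of the 3 genes for subunit c of the ATP synthase, which encode the same mature protein with different import sequences, Atp5g1 had the sharpest class pattern. It was at 2232 and 2437 CPM in choroid plexus-like cells and between 83.0 CPM in wild-type microglia-like and 231 CPM in mutant astrocyte-like cells elsewhere in the main classes. Atp5g1 made up 41.5% and 42.3% of subunit c UMIs in choroid plexus-like cells, below Atp5g3 at 48.2% and 46.7%. In microglia-like cells Atp5g2 led, with 52.6% and 53.5%. Atp5g3 led in all the other main classes, with its largest share in astrocyte-like cells, 64.1% and 65.2%. The largest gaps between highest and median class among nuclear genes were those of Ndufa4l2, Cox4i2, Cox8b, Atp5g1, Cox6b2 and Cox7a1, followed by 4 genes that were also highest in choroid plexus-like cells. These were Ndufa1 (1228 and 1212 CPM in choroid plexus-like cells, median class 161 and 161 CPM), Ndufa11 (1187 and 1224, median class 224 and 234), Cox7b (1111 and 1136, median class 206 and 234) and Uqcr11 (1675 and 1711, median class 364 and 368). Cox7a2l, which takes part in joining complexes III and IV into supercomplexes, did not peak in choroid plexus-like cells, unlike Cox7a1 and Cox7a2. It was lowest in astrocyte-like cells, at 85.7 and 92.6 CPM, and reached 228 and 227 CPM in microglia-like and 219 and 257 CPM in neuroblast-like cells, against 150 and 167 CPM in choroid plexus-like cells. Cox7a2l made up 61.3% and 61.9% of subunit VIIa family UMIs in microglia-like cells and 10.7% and 11.2% in choroid plexus-like cells.

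**Figure D2:**
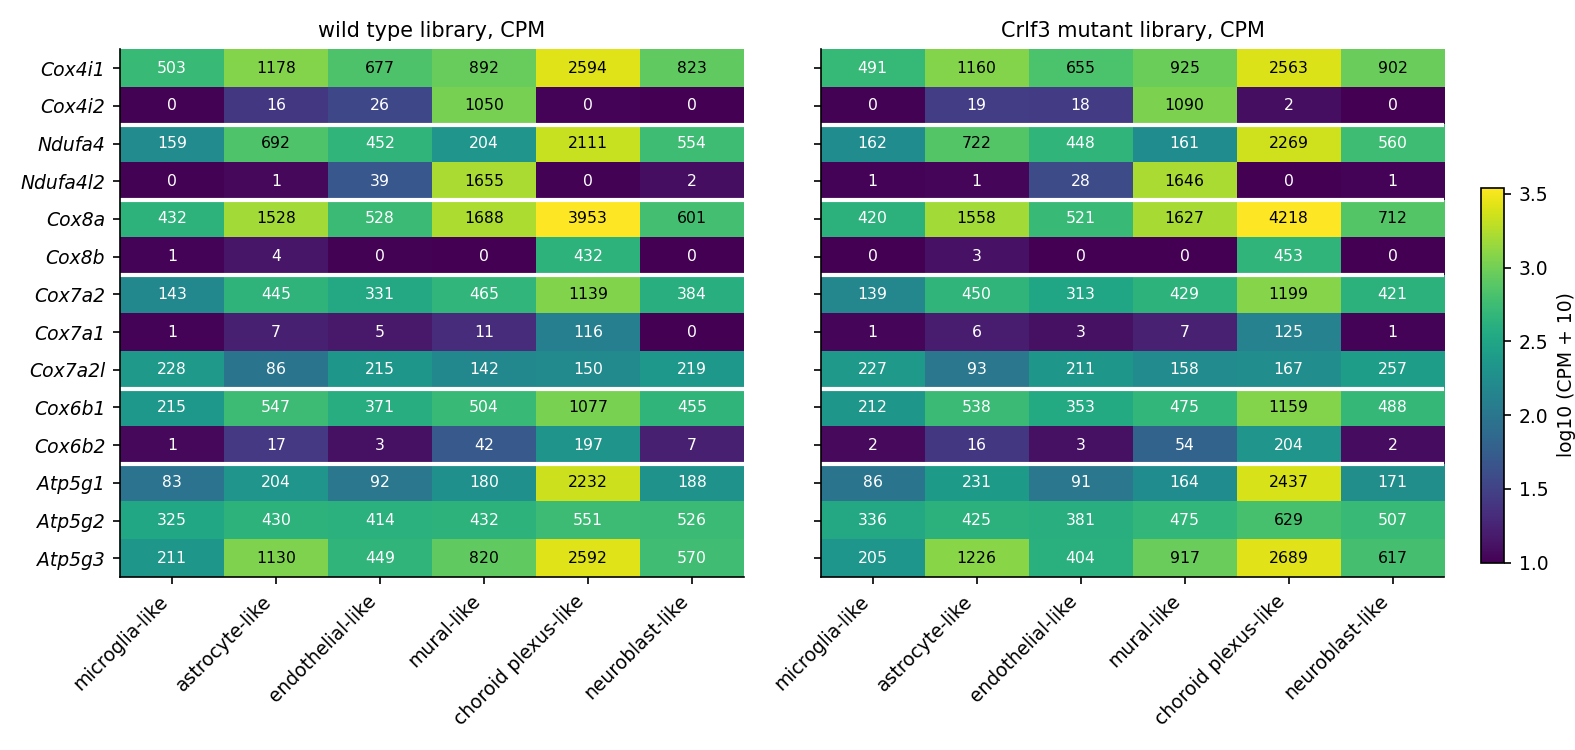
Level of complex IV isoform genes and of the subunit c genes of the ATP synthase in the 6 main classes, wild-type library on the left and mutant library on the right; numbers are CPM and the colour is log10 of CPM plus 10. Cox4i2 and Ndufa4l2 exceed 1000 CPM in mural-like cells and stay under 40 CPM elsewhere, and Cox8b and Atp5g1 peak in choroid plexus-like cells, in both libraries.

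RefSeq promoters on build GRCm38.p6 were matched to 77 of the 94 nuclear genes, and the 250 bases before each start were searched on both strands for 4 motifs. Of these, 4 are shown, all of genes that were highest in choroid plexus-like cells in both libraries, by differing margins over the median class. They are Atp5g1 (chr11:96075671-96075881, minus strand, here the 211 bases before all annotated starts), Atp5g3 (chr2:73911327-73911576, minus strand), Cox8b (chr7:140900447-140900696, minus strand) and Ndufa11 (chr17:56717512-56717761, plus strand). Capitals mark matches to CCAAT or its complement, and in Ndufa11 a match to the NRF1 motif. NRF1 is a transcription factor known for acting on nuclear genes of the respiratory chain.
Atp5g1: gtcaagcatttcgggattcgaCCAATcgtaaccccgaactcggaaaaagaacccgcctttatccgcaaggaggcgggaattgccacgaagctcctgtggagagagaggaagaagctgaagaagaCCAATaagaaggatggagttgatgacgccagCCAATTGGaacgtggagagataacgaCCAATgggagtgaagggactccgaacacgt
Atp5g3: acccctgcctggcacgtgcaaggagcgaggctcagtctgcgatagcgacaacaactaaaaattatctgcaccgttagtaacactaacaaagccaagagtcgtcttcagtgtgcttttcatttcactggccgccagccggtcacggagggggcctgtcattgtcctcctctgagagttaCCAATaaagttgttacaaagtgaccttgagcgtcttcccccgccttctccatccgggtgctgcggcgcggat
Cox8b: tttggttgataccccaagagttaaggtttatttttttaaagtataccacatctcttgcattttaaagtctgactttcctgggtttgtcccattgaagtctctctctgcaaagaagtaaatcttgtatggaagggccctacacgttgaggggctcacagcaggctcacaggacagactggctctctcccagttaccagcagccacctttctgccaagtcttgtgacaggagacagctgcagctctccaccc
Ndufa11: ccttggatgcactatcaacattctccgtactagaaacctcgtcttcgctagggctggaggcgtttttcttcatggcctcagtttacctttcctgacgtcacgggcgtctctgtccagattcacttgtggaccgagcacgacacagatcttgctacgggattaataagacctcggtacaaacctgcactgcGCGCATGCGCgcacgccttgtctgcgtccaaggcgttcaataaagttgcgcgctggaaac
Atp5g1 held 5 matches to CCAAT, of which 2 overlap on opposite strands, and Atp5g3 held 1. Cox8b held none of the 4 motifs, and Ndufa11 held 1 NRF1 motif. Over the 77 genes the NRF1 motif stood in 16.9% of windows, against 5.18% of the windows of all 21262 protein-coding genes of the table. The ETS motif CCGGAAG stood in 16.9%, against 8.98%, and CCAAT in 44.2%, against 35.4%. TATAAA stood in 9.09%, against 11.6%. The matches are letters in a window and no measure of binding.

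Between the libraries, among the 6 main classes, the mitochondrial genes stood apart in choroid plexus-like cells and little in the others. Their share of choroid plexus-like UMIs was 2.93% (2.91 to 2.94) for wild type and 1.96% (1.94 to 1.99) for the mutant. The nuclear genes were at 7.18% and 7.53%. The mutant over wild-type log2 ratio of the mitochondrial to nuclear ratio was -0.64 (-0.66 to -0.63). In the other main classes it was -0.20 (-0.23 to -0.16) in neuroblast-like, -0.13 (-0.18 to -0.09) in mural-like, -0.09 (-0.11 to -0.08) in astrocyte-like, -0.016 (-0.025 to -0.006) in microglia-like and -0.001 (-0.019 to 0.018) in endothelial-like cells. The signs of the microglia-like, astrocyte-like and mural-like values turned under some alternatives, and so did that of the endothelial-like value, which stayed between -0.03 and 0.02. The neuroblast-like value came to -0.06 in cells with an Xist UMI and no Y-linked UMI. Among the smaller classes, the ratio itself was 1.25 (1.22 to 1.28) and 0.938 (0.903 to 0.974) in 51 and 20 ependymal-like cells. In neural progenitor-like cells it was 0.941 and 0.796, and in border macrophage-like cells 1.11 and 1.10.

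All 13 mitochondrial genes were below 0 in choroid plexus-like cells, with a median log2 ratio of -0.58, and 6 of them were at least 1.5 times lower in the mutant library. The 6 were mt-Nd4 (1122 and 685 CPM, log2 ratio -0.71), mt-Nd3 (437 and 268 CPM, -0.68), mt-Nd4l (2867 and 1841 CPM, -0.64), mt-Atp6 (1286 and 833 CPM, -0.62), mt-Atp8 (3237 and 2127 CPM, -0.60) and mt-Co2 (3366 and 2236 CPM, -0.59). Both genes of each bicistronic message are among the 6, which are therefore not 6 separate transcripts. The other 7 genes ranged from mt-Nd2 (2091 and 1394 CPM, -0.58) to mt-Nd6 (237 and 190 CPM, -0.30). Log2 ratios were taken with a pseudocount of 10 CPM. Counted over all respiratory chain genes in either direction, also 6, those apart numbered 0 with at most 5% mitochondrial UMIs and by the mean of per-cell shares. They numbered 11 with the median of all genes set to 0 and 14 in cells with Y-linked and no Xist UMIs. The count of 14 exceeds 13, so it is not of mitochondrial genes alone. The shares of all measured genes under these alternatives are not given here. Of all 2557 genes measured over all cells of the choroid plexus-like class, 0.939% were at least 1.5 times apart in either direction and 0.508% at least 1.5 times lower in the mutant library. Over all cells of the class, none of the 85 measured nuclear genes was 1.5 times apart, with a median log2 ratio of 0.07, the same as the median of all measured genes. The lowest of them was Ndufb4, an accessory subunit of complex I, at 235 and 166 CPM (-0.48).

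The size of the choroid plexus-like difference varied with the depth of the cells compared. Under 5000 UMIs the mitochondrial to nuclear ratio was 0.652 in 44 wild-type and 0.641 in 10 mutant cells. From 5000 to under 10000 UMIs it was 0.495 in 153 and 0.378 in 40 cells, and from 10000 to under 20000 UMIs 0.334 in 122 and 0.312 in 40 cells. At 20000 UMIs or more it was 0.413 in 41 and 0.177 in 26 cells. The mutant value was thus the lower one in each of the 4 ranges, by the most among the deepest cells. Without the cells of 20000 UMIs or more the log2 ratio of ratios was -0.22, the summed nuclear genes turned from 0.07 to -0.05, and 1 gene in place of 6 was at least 1.5 times apart. This limit was chosen after seeing the data. In cells with at most 5% mitochondrial UMIs the value was -0.36, and in cells with Y-linked and no Xist UMIs (166 wild-type and 46 mutant cells) it was -1.004. Cells of this class with Xist and no Y-linked UMIs numbered 4 wild-type and 0 mutant. Those typed by these genes were thus nearly all Y-bearing, and how many mice of a pool the class rests on is not known. The 18 wild-type cells with most mitochondrial UMIs, 5% of the class, held 28.8% of its mitochondrial UMIs, and the 6 such mutant cells 19.9%. The median cell had 2.55% and 1.87% mitochondrial UMIs. Over thinned choroid plexus-like cells (2000 UMIs each, 356 and 115 cells of 1 library each) the mitochondrial and nuclear UMIs were inversely related, with Spearman's rho of -0.57 and -0.59. In the other 5 classes it lay between -0.26 and 0.19. Markers of ependymal cells summed to 729 and 862 CPM in the choroid plexus-like class, with 6 of 8 detected in each library, and their part in the result was not tested.

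**Figure D3:**
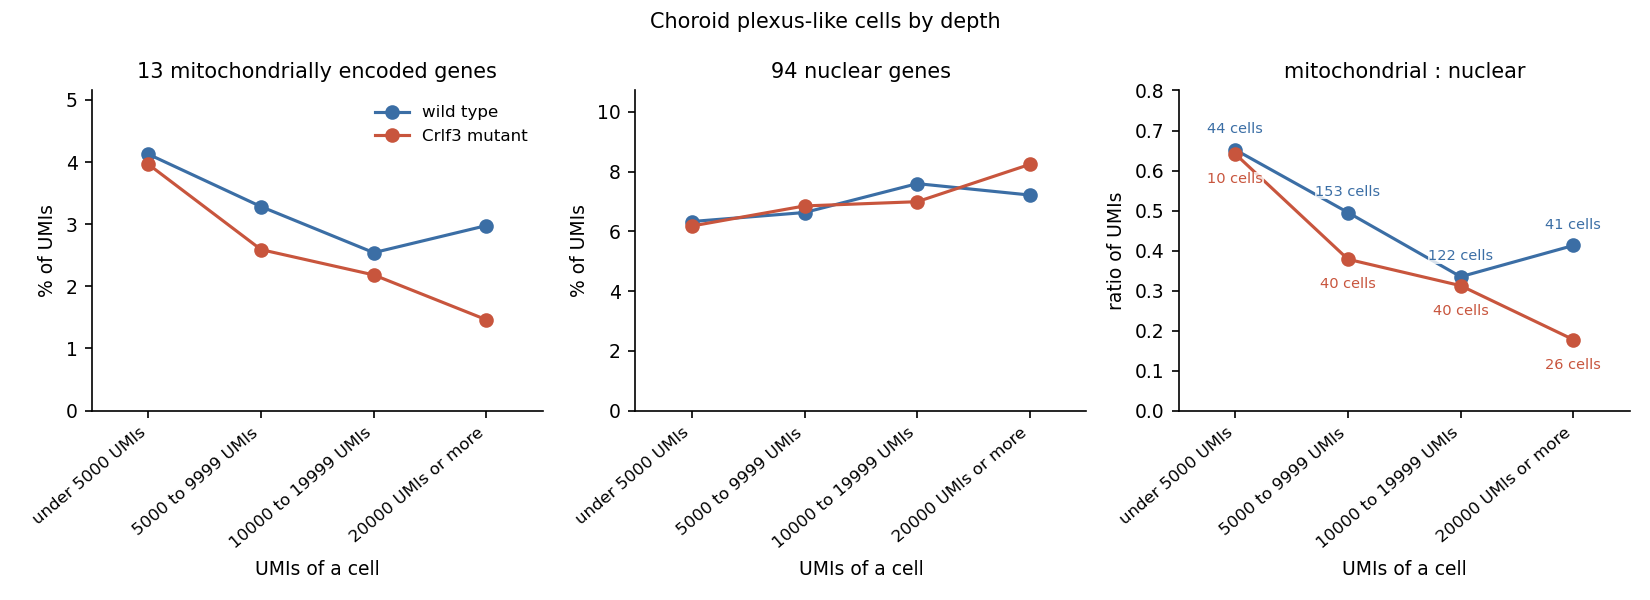
Choroid plexus-like cells split by their UMI count (x axis): share of UMIs from the 13 mitochondrial genes (left), from the 94 nuclear genes (middle) and their ratio (right), as sums over the cells of each range in the wild-type (blue) and mutant (red) library, with cell numbers in the right panel. The libraries are close under 5000 UMIs (0.652 and 0.641) and farthest apart at 20000 UMIs or more (0.413 and 0.177).

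In the other main classes no respiratory chain gene was 1.5 times apart. The share of all measured genes that were is 0.123% in microglia-like, 0.332% in astrocyte-like, 0.0839% in endothelial-like, 5.13% in mural-like and 1.07% in neuroblast-like cells. Small shifts of most mitochondrial genes had one sign across classes. Of the 13 genes, 10 were lower in the mutant library in all 6 classes, as were 3.14% of the 1177 genes measured in all 6. In cells with Y-linked and no Xist UMIs the summed mitochondrial genes turned to 0.09 in astrocyte-like and 0.23 in mural-like cells, and with at most 5% mitochondrial UMIs to 0.004 in astrocyte-like cells. The exceptions among the 13 were mt-Cytb, mt-Nd5 and mt-Nd6. mt-Cytb lay between -0.05 and 0.06 in the 5 classes other than choroid plexus-like cells, and mt-Nd6 was above 0 in 4 classes, at most 0.19 in mural-like cells. mt-Nd3 was the lowest of the 13 in microglia-like (-0.20), astrocyte-like (-0.31), endothelial-like (-0.21) and neuroblast-like cells (-0.26). All classes of a genotype come from 1 library, so a shift shared by classes cannot be told apart from a difference between the libraries.

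Nuclear genes had no common direction. Of 75 measured in all 6 classes, 1 was lower in each (Ndufb1-ps, log2 ratios from -0.34 to -0.09) and 3 were higher in each (Atp5b, Atp5c1 and Ndufb3, median log2 ratios of 0.03, 0.03 and 0.11). Of all 1177 genes, 4.76% were higher in each. The symbol of Ndufb1-ps has the ending used for pseudogenes, but the gene was at 704 and 629 CPM in choroid plexus-like cells. Whether it encodes a protein was not tested. Atp5k, subunit e of the ATP synthase, was lower in 5 classes, at 76.1 and 59.0 CPM in microglia-like (-0.32), 410 and 332 CPM in astrocyte-like (-0.30) and 202 and 150 CPM in endothelial-like cells (-0.41). It was the lowest of the nuclear genes in each of these 3 classes. At the other end of these classes were Ndufa9 in microglia-like (56.6 and 62.1 CPM, 0.12), Atp5g1 in astrocyte-like (204 and 231 CPM, 0.17) and Ndufaf7 in endothelial-like cells (90.1 and 99.8 CPM, 0.13). In mural-like cells the ends were Ndufaf2 (70.1 and 48.3 CPM, -0.46) and Ndufa9 (65.7 and 89.2 CPM, 0.39), and in neuroblast-like cells Ndufaf4 (59.6 and 43.8 CPM, -0.37) and Uqcrb (144 and 182 CPM, 0.32). Those 4 rest on 30 to 258 UMIs per library. The mural paralogues differed little between the libraries, as the levels above show.

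**Figure D4:**
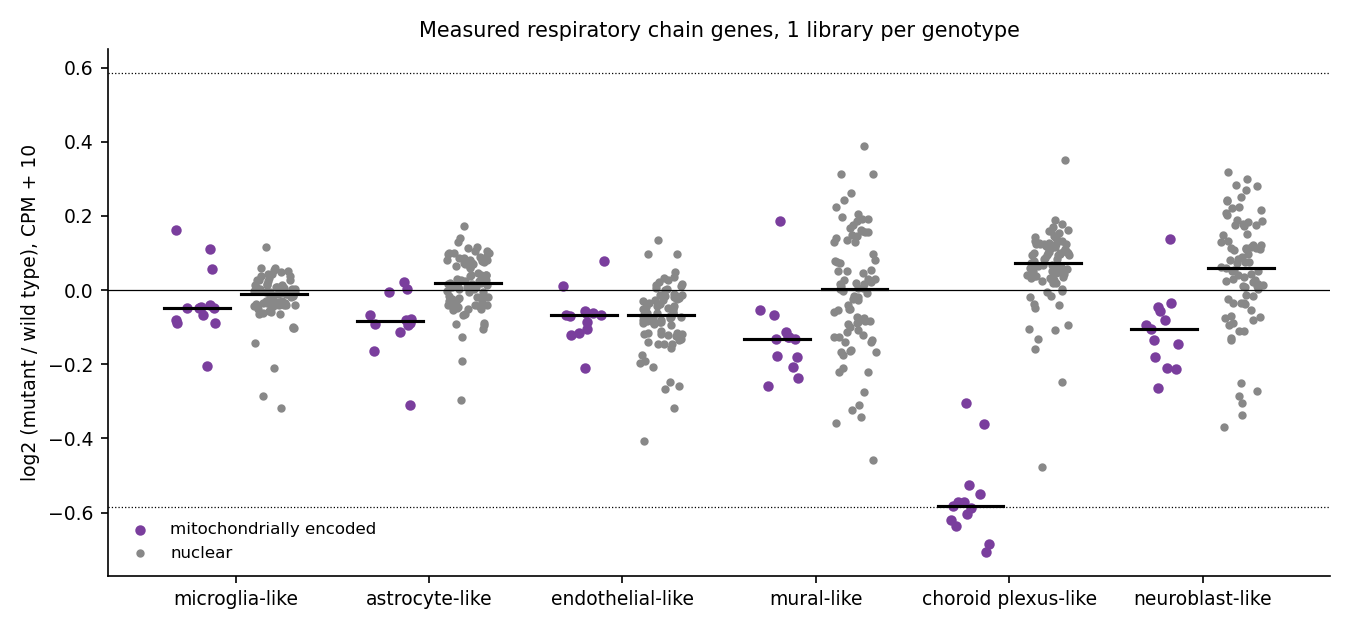
Log2 ratio of mutant over wild-type CPM (pseudocount of 10 CPM) of each measured respiratory chain gene in the 6 main classes, mitochondrial genes in purple and nuclear genes in grey; black lines are medians, dotted lines mark 1.5 times, and each genotype is 1 library. The 13 mitochondrial genes of choroid plexus-like cells lie between -0.71 and -0.30, and no nuclear gene of any class crosses a dotted line.

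Within microglia-like cells the ratio of mitochondrial to nuclear UMIs differed between clusters that were formed without the respiratory chain genes. It was 1.93 in 887 wild-type and 1.92 in 763 mutant cells of a cluster led by Nrgn, Lars2, Mt3, Gm42418 and AY036118. In a cluster led by Klf2 and Klf4, early response transcription factors, it was 1.37 (961 cells) and 1.35 (741 cells). A cluster led by the chemokine gene Ccl4 had 1.64 and 1.53, and one led by Il1b, an inflammatory cytokine, 1.51 and 1.39. The cluster led by the heat shock gene Hspa1b had the widest gap between libraries, 1.33 in 932 wild-type and 1.54 in 526 mutant cells, with a median of 4334 and 5270.5 UMIs. In a further cluster led by Klf4 and Hbegf it was 1.43 and 1.47, and in the smallest, led by Ifitm3 and Isg15, 1.53 and 1.502. Over these 7 clusters the nuclear share lay between 0.930% and 1.21% and the mitochondrial share ranged from 1.34% to 2.09%.

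Shallow cells had a different balance from deeper ones in several classes, among them choroid plexus-like cells, as given above. Mural-like cells under 5000 UMIs had a mitochondrial to nuclear ratio of 0.890 and 0.791, against 1.07 and 0.880 from 5000 to under 10000 UMIs. Neuroblast-like cells under 5000 UMIs had 1.45% nuclear respiratory chain UMIs in 26 wild-type and 0.895% in 15 mutant cells, against 2.34% and 2.43% from 10000 to under 20000 UMIs. Their mitochondrial to nuclear ratio was 2.04 and 4.00, against 1.04 and 0.902. Malat1, a long RNA kept in the nucleus, took 2.04% and 2.33% of UMIs in the shallow cells and 0.930% and 0.905% in the deeper ones, and its part in the difference was not tested. Astrocyte-like cells under 5000 UMIs had 5.05% and 5.53% mitochondrial UMIs, against 3.36% and 3.41% from 5000 to under 10000 UMIs, with Malat1 at 4.25% and 3.09% against 3.04% and 2.77%. From 10000 to under 20000 UMIs the mitochondrial share was 4.09% in 54 wild-type and 3.46% in 94 mutant astrocyte-like cells.

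Genes that act with the respiratory chain were followed in 8 lists of 154 genes in all. At the 1.5 times limit, 1 of their measured genes was apart in any class: Ucp2, an uncoupling protein homologue of the inner membrane, in mural-like cells (67.9 and 39.5 CPM, -0.65, from 31 and 27 UMIs). It was 1 of 11 genes of its list measured in mural-like cells, where 5.13% of all measured genes were apart. The call therefore does not set Ucp2 apart from other genes of that class. In the list of carriers and channels 10 or 11 of 16 genes were measured in each class. Ucp2 was at 1063 and 1009 CPM in microglia-like, 953 and 917 CPM in endothelial-like and 791 and 851 CPM in choroid plexus-like cells, and at 14.98 and 16.4 CPM in astrocyte-like cells. Slc25a4, the carrier that exchanges ADP for ATP, was higher in the mutant library in all 6 classes, from 67.9 and 79.6 CPM in microglia-like (0.20) to 101 and 138 CPM in endothelial-like cells (0.42). Its relative Slc25a5 lay between 0.00 and 0.24.

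Electron carriers and entry points had 4 to 9 of 15 genes measured and none apart. Cycs, cytochrome c, was at 886 and 897 CPM in choroid plexus-like cells and 138 and 148 CPM in microglia-like cells, an order shared with the nuclear subunits. Gpd2, which feeds electrons from glycerol phosphate, was instead highest in endothelial-like cells, at 234 and 245 CPM. Of 17 citric acid cycle genes, 10 to 17 were measured and none was apart. Cs, citrate synthase, was at 298 and 285 CPM in astrocyte-like and 84.0 and 93.4 CPM in choroid plexus-like cells, whereas Idh3a, a subunit of isocitrate dehydrogenase, was at 144 and 150 CPM and 371 and 382 CPM. Assembly factors outside the rule had 5 to 13 of 38 genes measured and none apart, with Cox20, a complex IV assembly factor, at 394 and 394 CPM in choroid plexus-like cells.

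The hypoxia list had 7 to 11 of 18 genes measured and none apart. Higd1b, a relative of the complex IV regulator Higd1a, shared the pattern of Cox4i2 and Ndufa4l2, at 1486 and 1304 CPM in mural-like cells and at most 35.2 CPM in the other main classes. Epas1, which encodes the hypoxia-inducible factor HIF-2 alpha, was at 554 and 628 CPM in mural-like and 986 and 1065 CPM in endothelial-like cells. Vegfa, an angiogenic factor, was at 359 and 303 CPM in astrocyte-like cells. Of the regulators of mitochondrial gene expression 0 to 2 of 10 genes were measured in a class. Ppargc1a, a coactivator of mitochondrial biogenesis, was at 86.8 and 86.4 CPM in astrocyte-like and 29.7 and 16.0 CPM in choroid plexus-like cells. Genes for copying and transcribing mitochondrial DNA had 1 to 5 of 25 measured, and the stress response list 4 to 7 of 15, with none apart in either. Tfam, which packages mitochondrial DNA, was under 50 CPM in every class, at 22.8 and 14.8 CPM in choroid plexus-like cells.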

How the data were processed

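Single-cell 5′ RNA was measured in hippocampal cells of 1 wild-type and 1 Crlf3-mutant library. The deposited matrices hold UMI counts per gene and barcode, not normalized, made by the authors with Cell Ranger 6.1.1 on mm10-2020-A, per the labels' protocols; Partek is listed in the submitters' processing notes without a role. How reads of near-identical gene copies were counted is not given in the sources used here.

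Cells with at least 1000 UMIs and 500 genes were kept and Scrublet doublets (scanpy 1.11.5, expected rate 0.06) removed, 135 and 82. A cell took the class of which it held the largest share of markers with a UMI, at least 40%, with the next class at no more than 0.75 of that share. This rule was set after the files were read. Leiden clusters (leidenalg 0.10.2), formed without the respiratory chain genes, gave the same class to 99.1% of the cells that both ways placed in a class. The clusters were named by the same markers, and cells that either way left without a class are not in this share. The choroid plexus-like cluster held 463 wild-type and 160 mutant cells, against 360 and 116 by the marker rule. UMIs were summed per class and library as CPM. Log2 ratios used a pseudocount of 10 CPM, and sums carry exact Poisson, shares exact Clopper-Pearson and ratios log-normal 95% intervals. The scripts were tested on simulated counts.

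The genes and lists were chosen with earlier results of these data known. Values are given for the mitochondrial genes, isoform families, the 10 nuclear genes with the largest gap between highest and median class, the ends of each class's log2 ratios and leading genes of each list; Ndufc2, Ndufa7, Slc25a5, Tfam and Malat1 were added after their values were seen. One value that this rule would name is not reported here.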

Additional observations from a re-analysis of the deposited data

How the results depend on the processing

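The alternatives listed here left the ends of the class order in place where all 6 classes could be compared, but in cells under 5000 UMIs astrocyte-like and neuroblast-like ratios were above those of microglia-like cells. Of 222 alternative values of the comparisons, 178 were counted as the same, 38 as moved and 6 as turned in sign, and of 376 other values 203, 166 and 7. Small values that changed sign, such as the endothelial-like one, were not all counted as turned. Leaving out a library was not possible with 1 per genotype, and choroid plexus-like cells with Xist and no Y transcript were too few (4 and 0). No paired analysis was possible because each genotype is 1 library and no number in the labels ties samples. The cause of each change below was not tested.

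The log2 ratio of ratios moved as follows. With at most 5% mitochondrial UMIs per cell it was 0.0072 in astrocyte-like, -0.0750 in mural-like, -0.358 in choroid plexus-like and -0.134 in neuroblast-like cells, and with at most 10% -0.0348 in astrocyte-like and -0.614 in choroid plexus-like cells. With at least 3000 UMIs it was -0.0225 in astrocyte-like cells. Leiden clusters gave 0.0012 in microglia-like, -0.127 in astrocyte-like and -0.588 in choroid plexus-like cells, and the stricter gate -0.511 in the last. Without doublet removal it was -0.0226 in mural-like and -0.679 in choroid plexus-like cells. Thinned to 2000 UMIs it was -0.0410 in astrocyte-like, -0.183 in mural-like and -0.455 in choroid plexus-like cells. Cells with Xist and no Y transcript gave 0.0039 in microglia-like, -0.150 in astrocyte-like, 0.0052 in endothelial-like, -0.185 in mural-like and -0.0568 in neuroblast-like cells. Cells with Y transcripts and no Xist gave -0.0334 in microglia-like, 0.0322 in astrocyte-like, -0.0309 in endothelial-like, 0.0932 in mural-like and -1.004 in choroid plexus-like cells. The mean of per-cell shares gave 0.0327 in microglia-like, -0.205 in astrocyte-like, -0.179 in mural-like and -0.432 in choroid plexus-like cells. Under 20000 UMIs, chosen after seeing the data, it was -0.224 in choroid plexus-like cells.

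Of the summed genes, the mitochondrial sum turned to 0.0040 (at most 5% mitochondrial UMIs) and 0.0939 (Y transcripts) in astrocyte-like and 0.225 (Y transcripts) in mural-like cells. The nuclear sum turned to -0.0032 (at most 5%), -0.00049 (at least 3000 UMIs) and -0.0066 (Xist) in astrocyte-like cells, and to -0.0520 under 20000 UMIs in choroid plexus-like cells. Genes at least 1.5 times apart in choroid plexus-like cells, 6 as reported, numbered 0 with at most 5% mitochondrial UMIs and by per-cell means, 1 under the stricter gate and under 20000 UMIs, 2 thinned, 3 in Leiden clusters, 11 with the median of all genes at 0 and 14 with Y transcripts. In mural-like cells, 0 as reported, they numbered 1 thinned, 2 with no filter on low levels, 5 with Xist and 12 with Y transcripts, and in neuroblast-like cells, also 0, they numbered 2 thinned and 1 with Y transcripts. Mural-like and neuroblast-like values rest on the fewest cells, and mural-like cells with Y transcripts numbered 27 wild-type and 47 mutant. The shares of all measured genes under these alternatives are not given here. These counts therefore do not set the respiratory chain genes apart from others.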
